A study of Mus musculus with 23 samples.

Results

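The 2-cell-like state genes are 9 genes that mouse embryonic stem (ES) cells transcribe at low average levels: Zscan4c, Zscan4d, Zscan4f, Usp17la, Zfp352, Tcstv1, Tcstv3, Tmem92 and Sp110. They were taken by symbol from a named list, and all 9 were found among the 18412 genes of the exon and intron tables.

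In a mouse ES cell culture, a small minority of cells at any moment passes through a transient state in which genes of the 2-cell embryo are switched on. The transcription factor Dux turns on many of these genes, among them the Zscan4 cluster, whose zinc finger proteins act on telomeres and genome stability, and the endogenous retrovirus MERVL. A bulk culture level therefore mixes how many cells are in the state and how much RNA each of them holds. These cannot be told apart in the present data.

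The study asked what the Argonaute proteins, which carry microRNAs to their target RNAs, do in mouse ES cells, and sequenced polyadenylated RNA of 23 samples in 11 groups. All cells grew on gelatin with serum and LIF. Exon reads and intron reads were tabulated separately, and intron reads come from RNA that has not been spliced.

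The genetic series compared wild-type AB2.2 cells (n = 2) with 3 kinds of mutant lines that all also lacked Blm. These were the line B9, of genotype Blm-/-;Ago1,3,4-/- (n = 2), in which mouse Ago2 is the only Argonaute, the line E7, of genotype Blm-/-;Ago1,2,3,4-/-;CreERT2;hAgo2fl (n = 3), in which a floxed human Ago2 is the only one, and the clones C62 and C86, of genotype Blm-/-;Ago1,2,3,4-/-;CreERT2 (n = 2, 1 library of each clone). AB2.2 still has Blm, so Argonaute loss and Blm loss cannot be told apart in comparisons with it. B9 and E7 are each a single line. The time course and the rescue used cells of the clones' genotype plus the transgene TT-FHAgo2, which doxycycline turns on; whether their samples come from 1 clonal line or several is not given in the labels. In the time course the cells had 2.5 µg/mL doxycycline for 48 h and then none for 0, 24, 48 or 96 h (n = 2 each). Before the rescue the cells were held at 0.1 µg/mL, a dose that the treatment labels of its samples do not name. In the rescue they had none for 96 h and were then collected, or given 0.1 or 2.5 µg/mL for 48 h (n = 2 each). The undosed group was therefore collected 48 h before the dosed ones, and the treatment and that time cannot be told apart.

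Depth ranged from 13.5 to 62.4 M exon reads (M stands for 1000000) and from 1.47 to 8.38 M intron reads per library. Ago1 had 0 reads in every library of a mutant line and 4104 ± 834 normalised exon reads (SD, n = 2) in AB2.2. Ago2 had reads in every line, 5819 ± 877 normalised exon reads (SD, n = 2) in the clones, so its total does not check the labels. In the time course Ago2 had 11759 and 12167 normalised exon reads at 0 h and 10771 and 10817 after 96 h without doxycycline, and in the rescue 7260 and 7300 without doxycycline and 6093 and 5284 at 2.5 µg/mL. Its exon level was thus nearly as high after withdrawal as before, and lower rather than higher where doxycycline had been given back. Reads of the transgene and of the disrupted mouse gene cannot be told apart in these tables, so the groups are named here by their labelled doxycycline treatment and the Ago2 level itself was not checked. All 10 of the ES cell markers were measured. Over the libraries they summed to between 2269 and 8197 RPM per kilobase of exon, where RPM stands for exon reads per 1000000 exon reads of the library. In the genetic series 7 of the 10 were summed, because 3 had values in E7 that could not be resolved into libraries. In the same unit 8 fibroblast feeder markers summed to 1.39 to 7.17, and of these Col3a1 was at 0 in 10 of the 11 groups.

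The 3 Zscan4 members lie on chromosome 7 and are near-copies of each other, which bears on how their reads can be assigned. In the mm10 annotation Zscan4c spans chr7:11005745-11010547 (plus strand), Zscan4d chr7:11161374-11166159 (minus strand) and Zscan4f chr7:11397915-11402318 (plus strand). The promoter stretches that follow are shown because they carry a match to the Dux motif at the same distance from a TATA box. Each begins 20 bases before the motif match, runs 5′ to 3′ along the gene and comes from the RefSeq promoter table (GRCm38.p6). Capitals mark the Dux match and the TATAAA. The Dux match lies on the opposite strand, so its letters here are the reverse complement of the motif.
Zscan4c, chr7:11005611-11005710, plus strand: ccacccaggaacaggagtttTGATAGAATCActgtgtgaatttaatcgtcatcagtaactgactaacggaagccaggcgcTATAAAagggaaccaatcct
Zscan4d, chr7:11166194-11166293, minus strand: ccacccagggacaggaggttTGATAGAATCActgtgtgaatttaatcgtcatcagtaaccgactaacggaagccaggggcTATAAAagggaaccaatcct
Zscan4f, chr7:11397804-11397903, plus strand: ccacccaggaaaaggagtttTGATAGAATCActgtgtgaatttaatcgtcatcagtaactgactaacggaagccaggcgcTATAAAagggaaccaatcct

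The Zscan4c and Zscan4f stretches had the same base at 99 of 100 positions, Zscan4c and Zscan4d at 96, and Zscan4d and Zscan4f at 95. In each, the TATAAA began 60 bases after the first base of the Dux match. Of all RefSeq promoters, 13.6% held a TATAAA. The Dux motif was searched as TGATTNNATCA on both strands in the 300 bases of each RefSeq promoter, and 68 of 32851 promoters (0.207%) held it. Of the 9 genes, 6 had a promoter there, and the matches were in Zscan4c, Zscan4d and Zscan4f, with none in Usp17la, Zfp352 or Sp110. None of these 6 genes' promoters held the Gata core GATAAG (in 7.44% of all promoters) or the Zscan4 motif TGCACAC (in 4.40%). These matches are descriptions of letters, not of binding.

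The microRNAs of ES cells are loaded into Argonaute, and their main family shares 1 seed (bases 2 to 8, in capitals), so the 3′ UTRs were searched for its site. The mature sequences from RefSeq (GRCm38.p6) are given to show the shared seed.
mmu-miR-294-3p, chr7:3220691-3220712, plus strand: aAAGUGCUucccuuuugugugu
mmu-miR-302b-3p, chr3:127545275-127545297, plus strand: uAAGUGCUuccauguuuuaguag

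The site that pairs with this seed, AGCACTT, was in the 3′ UTR of 3028 of 20945 genes (14.5%), taking the longest protein-coding transcript of each gene. Among the 9 genes 1 held it, Tmem92, whose 3′ UTR of 1430 bases was the longest of the 9.

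Reads of the Zscan4 members are shared with other copies, so their split between copies is uncertain. Of all stretches of 50 bases in the longest Zscan4f transcript, 95.3% also occurred in a transcript of another gene, and 81.7% occurred in Zscan4c. The share was 85.5% for Zscan4c and 49.6% for Zscan4d. It was lower for the genes outside the Zscan4 cluster, at 43.9% for Sp110, 31.4% for Tcstv3, 19.6% for Usp17la, 16.8% for Tcstv1, 7.09% for Zfp352 and 2.01% for Tmem92. How the authors treated reads with several matches is not given in the sources used here.

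Before doxycycline was withdrawn, all 9 genes were at low levels, and the Zscan4 members made up most of their reads. In RPM per kilobase of exon, the mean levels at 0 h were 5.30 for Zscan4d, 5.27 for Zscan4f, 3.31 for Zscan4c, 1.76 for Tmem92, 0.529 for Zfp352, 0.447 for Tcstv3, 0.414 for Usp17la, 0.198 for Tcstv1 and 0.160 for Sp110. Zscan4c, Zscan4d and Zscan4f together held 78.3% to 82.7% of the 9 genes' reads in the libraries of the time course.

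The 2-cell-like state genes rose late after doxycycline was withdrawn, between 48 h and 96 h. At 24 h none of the 8 tested genes was called higher than at 0 h, at 48 h 2 were, and at 96 h 6 of the 8 were, by between 0.93 and 1.72 on the log2 scale. The sum of the 9 genes was 34.8 RPM at 0 h (33.8 and 35.7 in the 2 libraries). It was 33.1 after 24 h (29.7 and 36.4) and 37.7 after 48 h (37.6 and 37.8), and reached 73.2 after 96 h (68.7 and 77.6). The libraries at 96 h stood above all 6 libraries of the earlier times.

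Changes were tested with limma on log2 of the normalised reads + 1. Genes entered the test where their mean in a series reached 10 normalised reads, and were called where the p adjusted over all tested genes (Benjamini-Hochberg) was under 0.05. Tcstv1 was under that minimum in the time course. Changes given below as log2 are on that scale, which understates the changes of low genes.

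**Figure D1:**
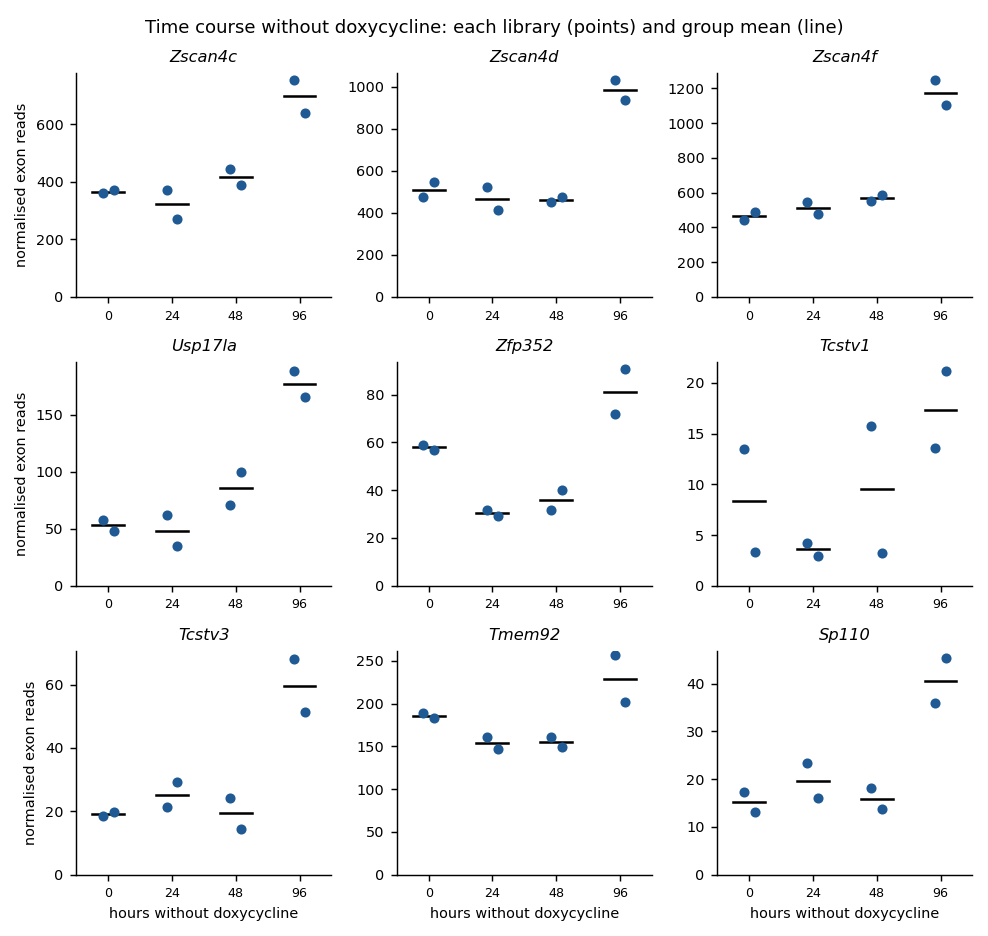
Normalised exon reads (vertical axis, linear from 0) of the 9 genes against hours without doxycycline, with 1 point per library and a line at the mean of each group of 2. In every gene but Tcstv1 both libraries at 96 h lie above every library at 0, 24 and 48 h. The share of all genes for which this holds was not counted, so whether it is particular to these genes was not tested.

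Zscan4f, one of the copies transcribed in ES cells, had 444.5 and 490.2 normalised exon reads in the 2 libraries at 0 h, 545 and 479 after 24 h, 550.1 and 586 after 48 h, and 1246 and 1103 after 96 h. Its lower library at 96 h was above all libraries of the other times. The log2 change from 0 h to 96 h was 1.33 ± 0.10 (SE; limma adjusted p = 8.71e-11). Zscan4d, the copy best known from the 2-cell embryo, had 477 and 546 at 0 h, 525 and 412 after 24 h, 450.7 and 474 after 48 h, and 1034 and 939 after 96 h. Its libraries up to 48 h overlapped and those at 96 h lay above them, with a log2 change at 96 h of 0.95 ± 0.12 (SE; limma adjusted p = 1.62e-07). Zscan4c, the other copy known from ES cells, went from 359.5 and 369.8 at 0 h through 371 and 272 after 24 h and 443 and 388 after 48 h to 753 and 639 after 96 h. Its log2 change at 96 h was 0.93 ± 0.14 (SE; limma adjusted p = 2.55e-06).

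Usp17la, of a family of deubiquitinating enzymes, had the largest change of the members tested. It had 58.0 and 48.1 normalised exon reads at 0 h, 61.6 and 34.9 after 24 h, 70.7 and 99.9 after 48 h, and 188 and 165 after 96 h. The groups at 0 h and 96 h did not overlap, and the log2 change was 1.72 ± 0.28 (SE; limma adjusted p = 1.13e-05). Tcstv3, a gene of the 2-cell embryo with a near copy in Tcstv1, was level up to 48 h, with 18.4 and 19.7 at 0 h, 21.2 and 29.1 after 24 h, and 24.1 and 14.5 after 48 h. At 96 h it had 68.0 and 51.3, a log2 change of 1.59 ± 0.42 (SE; limma adjusted p = 0.00191). Tcstv1, not tested, had 13.5 and 3.28 at 0 h, 4.25 and 2.91 after 24 h, 15.8 and 3.22 after 48 h, and 13.6 and 21.1 after 96 h. Its lower library at 96 h was only just above the higher one at 0 h, and below the higher one at 48 h.

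Sp110, a nuclear body protein that interferon induces, had few reads: 17.4 and 13.1 at 0 h, 23.4 and 16.0 after 24 h, 18.1 and 13.7 after 48 h, and 35.9 and 45.3 after 96 h. Its log2 change at 96 h was 1.36 ± 0.46 (SE; limma adjusted p = 0.0124), and the call was lost without the second 0 h library (adjusted p = 0.0672) or without the second 96 h library (0.0899). Of 20 interferon-stimulated genes listed beside it, 12 were tested. Of the 12, 10 were called higher and 2 lower, against 32.4% and 32.5% of all genes. The median log2 change of the 12 was 1.23 against -0.01 over all genes tested. Zbp1, a sensor of nucleic acids, went from 10.7 to 330.4 normalised reads, a log2 change of 4.82 ± 0.29 (SE; limma adjusted p = 9.9e-13). The part of the interferon-stimulated genes' change in that of Sp110 was not tested.

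Tmem92, a transmembrane protein gene used as a marker of the state, and Zfp352, a zinc finger gene of the 2-cell embryo, did not pass at 96 h against 0 h. Zfp352 did with a prior without a trend (adjusted p = 0.0421). Tmem92 had 188 and 184 at 0 h, 161.5 and 147 after 24 h, 161.0 and 149 after 48 h, and 256 and 201 after 96 h, and the log2 change from 0 h to 96 h was 0.29 ± 0.17 (SE; limma adjusted p = 0.155). Zfp352 had 58.9 and 56.9 at 0 h, 31.9 and 29.1 after 24 h, 31.6 and 40.3 after 48 h, and 71.9 and 90.6 after 96 h, with a log2 change of 0.47 ± 0.31 (SE; limma adjusted p = 0.19). In both genes the 24 h and 48 h libraries all lay below those at 0 h, and the 96 h libraries lay above them.

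Counted over the time course, at 24 h against 0 h limma called 0 of the 8 genes higher, against 26.5% of the 13652 genes tested, and 1 lower, against 24.1%. At an unadjusted p under 0.05 the count higher was also 0, and limma voom on the recovered reads also gave 0. The gene called lower was Zfp352, which fell by 0.90 ± 0.31 on the log2 scale (SE; limma adjusted p = 0.0189); it was not called without either 0 h library (0.0741 and 0.0598) or without the second 24 h library (0.0707). Without the first 24 h library Zscan4c was called lower too, at -0.42 (adjusted p = 0.0232). At 48 h against 0 h 2 of 8 were called higher, against 32.1% of all genes: Zscan4f, by 0.28 ± 0.10 (SE; limma adjusted p = 0.0211), and Usp17la, by 0.66 ± 0.28 (SE; adjusted p = 0.0457). Zscan4f was not called without the first 0 h library (0.16) or the second 48 h library (0.14), and Usp17la without either 0 h library (0.054 and 0.194), the second 48 h library (0.343) or the first 96 h library (0.0511).

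At 96 h against 0 h 6 of 8 were called higher, against 32.4% of all genes, and 0 lower, against 32.5%; 0 were lower at an unadjusted p under 0.05 or by voom. The median log2 change of the 8 was 1.14, beside -0.01 over all genes tested.

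From 48 h to 96 h 8 of 8 genes were called higher, against 20.1% of all genes, with a median log2 change of 1.08 beside 0.02 over all genes. From 24 h to 48 h it was 2 of 8, Usp17la and Zscan4c, against 20.2%, with a median of 0.08 beside 0.01. Both of these were lost when a library was left out, Usp17la without the second 24 h library (adjusted p = 0.276) or the second 48 h library (0.237), and Zscan4c without the second 24 h library (0.428) or the first 48 h library (0.24).

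In the step from 48 h to 96 h the log2 changes were 1.09 ± 0.12 for Zscan4d, 1.04 ± 0.10 for Zscan4f, 0.74 ± 0.14 for Zscan4c, 1.61 ± 0.42 for Tcstv3, 1.06 ± 0.28 for Usp17la, 1.16 ± 0.31 for Zfp352, 1.30 ± 0.46 for Sp110 and 0.55 ± 0.17 for Tmem92 (SE). The Zscan4 members kept the call when any 1 library was left out, with adjusted p at most 0.00949. The other 5 did not. Leaving out the first 48 h library removed Sp110, Tmem92, Usp17la and Zfp352 (adjusted p = 0.065, 0.0531, 0.0985 and 0.0668), the second 48 h library Sp110, Tcstv3 and Tmem92 (0.163, 0.0705 and 0.112), the first 96 h library Sp110, Tcstv3 and Tmem92 (0.0637, 0.0528 and 0.203), and the second 96 h library Sp110 and Zfp352 (0.152 and 0.0612).

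Intron reads showed the rise of Zscan4d, Zscan4f and Sp110 before splicing as well. Zscan4f had 47.1 and 59.1 normalised intron reads at 0 h, 46.0 and 44.3 after 24 h, 69.3 and 68.0 after 48 h, and 115 and 127 after 96 h. Both libraries at 96 h were above all the others, and the log2 change from 0 h was 1.18 ± 0.26 (SE; limma adjusted p = 0.000445), beside 1.33 in exons. Zscan4d had 55.8 and 58.1 at 0 h, 59.2 and 42.7 after 24 h, 92.6 and 55.3 after 48 h and 97.4 and 109 after 96 h, a log2 change of 0.84 ± 0.28 (SE; limma adjusted p = 0.0141), beside 0.95 in exons. That call was lost without the first 0 h library (0.0629) or the second 96 h library (0.0995). Sp110 had 73.1 and 57.0 at 0 h and 123 and 128 after 96 h, a log2 change of 0.95 ± 0.25 (SE; limma adjusted p = 0.00218). Zscan4c had only 8 and 14 intron reads at 0 h and 11 and 15 after 96 h, and its log2 change of 0.29 ± 0.64 (SE) did not pass.

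In introns, 3 of the 4 genes tested were called higher at 96 h against 0 h, against 22.7% of the 12225 genes tested, and 2 of 4, Zscan4f and Sp110, at 96 h against 48 h, against 9.17%. Of those 2, Zscan4f was lost without any of the 48 h and 96 h libraries (adjusted p from 0.0983 to 0.191), and Sp110 without the first 48 h library (0.0623) or the second 96 h library (0.0506). Usp17la, Zfp352, Tcstv1, Tcstv3 and Tmem92 had means under 10 normalised intron reads in the time course and were not tested. Usp17la, for example, had between 0 and 4 intron reads in any library of the time course.

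No 2-cell-like state gene was called lower 48 h after doxycycline was given back. At 2.5 µg/mL doxycycline 3 of the 9 tested genes were higher than without doxycycline, Tmem92, Zfp352 and Zscan4d, against 31.8% of the 13176 genes tested, and 0 were lower, against 32.0%. At an unadjusted p under 0.05, 4 were higher and 0 lower, and voom called 4 higher and 0 lower. At 0.1 µg/mL the same 3 genes were called higher, against 22.0% of all genes. The sum of the 9 genes was 44.5 RPM without doxycycline (43.8 and 45.2 in the 2 libraries), 54.8 with 0.1 µg/mL (52.7 and 56.8) and 55.9 with 2.5 µg/mL (55.8 and 55.9). The undosed libraries were below all dosed ones, and the 2 doses overlapped.

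**Figure D2:**
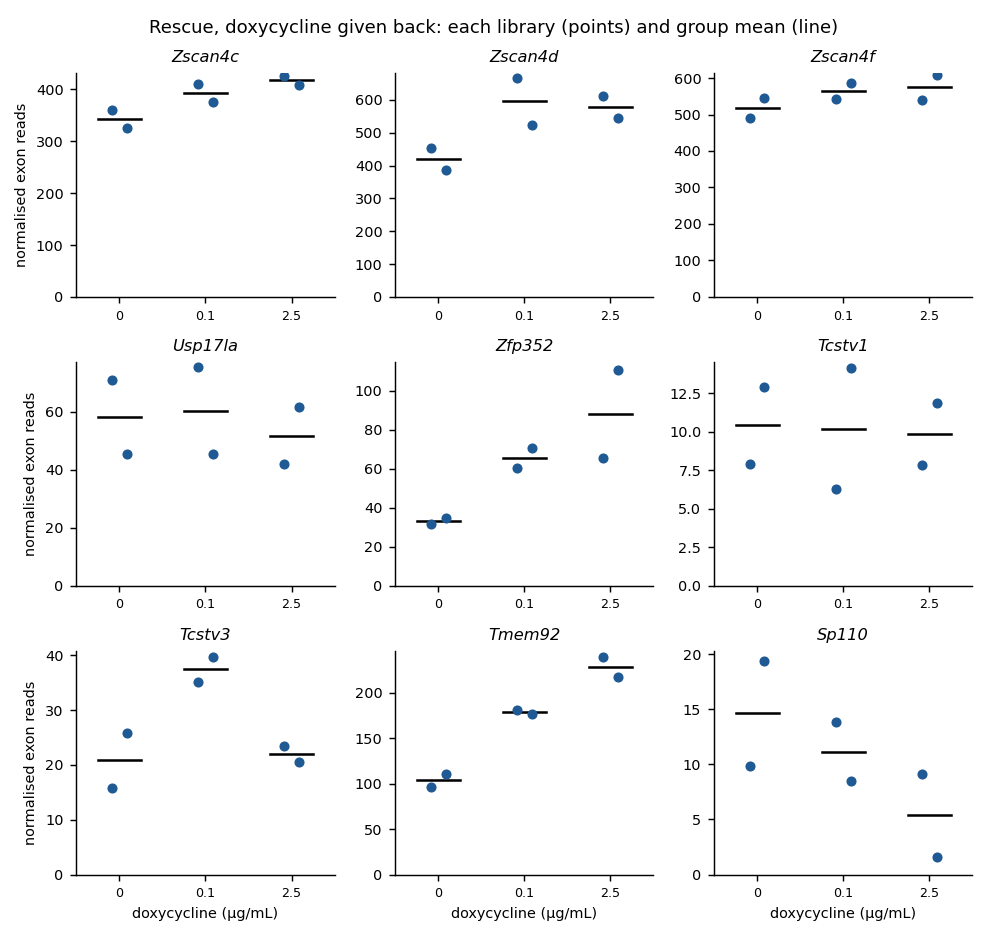
Normalised exon reads (vertical axis, linear from 0) of the 9 genes in the rescue against the doxycycline dose, with 1 point per library and a line at the mean of each group of 2. In Zscan4c, Zscan4d, Zfp352 and Tmem92 both undosed libraries lie below all 4 dosed ones, and in Usp17la the doses overlap. The share of all genes with undosed libraries below all dosed ones was not counted.

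Tmem92 had 96.5 and 111 normalised exon reads without doxycycline, 181 and 177 with 0.1 µg/mL and 239 and 217 with 2.5 µg/mL. No libraries of different doses overlapped, and the log2 changes against no doxycycline were 0.78 ± 0.19 at the low dose (SE; limma adjusted p = 0.00172) and 1.13 ± 0.19 at the high dose (SE; limma adjusted p = 1.27e-05). Zfp352 had 31.5 and 34.5 without doxycycline, 60.3 and 70.7 with 0.1 µg/mL, and 65.3 and 111 with 2.5 µg/mL. Its log2 changes were 0.97 ± 0.33 (SE; limma adjusted p = 0.0207) and 1.34 ± 0.33 (SE; limma adjusted p = 0.00103), and the 2 doses overlapped. Zscan4d had 455 and 387 without doxycycline, 667 and 525 with 0.1 µg/mL, and 612 and 546 with 2.5 µg/mL, with log2 changes of 0.49 ± 0.13 (SE; limma adjusted p = 0.0021) and 0.46 ± 0.13 (SE; limma adjusted p = 0.00233).

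At the low dose Zfp352 was not called without either undosed library (adjusted p = 0.0905 and 0.0544) or the second low-dose library (0.119), nor Zscan4d without the second undosed library (0.0653) or the first low-dose library (0.0916). At the high dose Zscan4d was not called without the second undosed library, where its log2 change was 0.34. With a prior without a trend Zscan4d was not called there either (limma adjusted p = 0.0629), while Zscan4c was (0.04). At the low dose that prior lost Zscan4d (0.0783) and Zfp352 (0.0592), and voom lost Zfp352 (0.0794).

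The other Zscan4 members moved less. Zscan4c had 360.4 and 325.5 without doxycycline, 409.7 and 375 with 0.1 µg/mL and 426 and 409 with 2.5 µg/mL, and the change at 2.5 µg/mL, 0.28 ± 0.13 (SE), missed the threshold (limma adjusted p = 0.0579). Zscan4f had 491 and 546.5 without doxycycline and 541 and 607 with 2.5 µg/mL, a log2 difference of 0.15 ± 0.11 (SE; limma adjusted p = 0.264).

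Usp17la, which had the largest rise at 96 h without doxycycline, had 70.9 and 45.3 without doxycycline, 75.4 and 45.3 with 0.1 µg/mL and 41.8 and 61.7 with 2.5 µg/mL, with a log2 difference at the high dose of -0.15 ± 0.36 (SE; limma adjusted p = 0.723). Tcstv3 had 15.8 and 25.9, then 35.2 and 39.6, then 23.5 and 20.6, so that the low-dose libraries were the highest, without passing the test (0.85 ± 0.47 against no doxycycline, SE; limma adjusted p = 0.15). Tcstv1 had between 5 and 15 reads in any library of the rescue and differed by less than its error.

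Sp110 was the only member with lower exon values at the high dose in both libraries, 9.15 and 1.58 against 9.85 and 19.4 without doxycycline. These came from 14 and 2 reads against 10 and 18, and the log2 difference of -1.54 ± 0.82 (SE) did not pass (limma adjusted p = 0.104), although it did without the first high-dose library (-2.53, adjusted p = 0.0182). In introns Sp110 was not lower, with 50.2 and 32.8 normalised reads without doxycycline and 53.0 and 50.2 at 2.5 µg/mL. That log2 change was 0.34 ± 0.35 (SE, limma adjusted p = 0.457). Of the 12 interferon-stimulated genes tested, 9 fell and 2 rose at 2.5 µg/mL, against 32.0% and 31.8% of all genes. Their median log2 change was -1.26 beside 0.00 over all genes. Between the 2 doses 0 of the 9 genes were called, at an unadjusted p under 0.05 or by voom 0 as well, against 41.0% of all genes called in either direction.

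Among introns, 1 of 3 genes tested was called higher at 2.5 µg/mL against none, against 24.3% of the 11580 genes tested, and 1 of 3 at 2.5 against 0.1 µg/mL, against 17.8%. In both it was Zscan4d, with 45.0 and 41.5 normalised intron reads without doxycycline, 57.4 and 37.9 with 0.1 µg/mL and 84.9 and 88.7 with 2.5 µg/mL. Both high-dose libraries were above all others, with a log2 change against no doxycycline of 0.99 ± 0.32 (SE; limma adjusted p = 0.0129) and against the low dose of 0.88 ± 0.32 (SE; limma adjusted p = 0.0345). The first was lost without the second undosed library (0.0772), and the second without the second low-dose library (0.282) or either high-dose library (0.0572 and 0.0811).

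Withdrawal and return of doxycycline were then set side by side for the same genes. The change from 0 h to 96 h without doxycycline was compared with that from 2.5 to 0 µg/mL in the rescue. The rescue had no group from before withdrawal, so no rise was measured there. The comparison therefore shows whether the 2 changes differed and does not measure how far a rise was reversed. The difference between these changes was tested in 1 limma fit over both exon tables, a test chosen after the values had been seen. It was above 0 for 7 of the 8 genes tested, against 13.5% of the 13149 genes tested. The differences on the log2 scale were 1.47 ± 0.15 for Zscan4f (SE; limma adjusted p = 5.43e-08), 1.41 ± 0.18 for Zscan4d (1.69e-06), 1.21 ± 0.19 for Zscan4c (3.49e-05), 1.42 ± 0.25 for Tmem92 (0.000137), 1.81 ± 0.46 for Zfp352 (0.00411), 1.57 ± 0.47 for Usp17la (0.014) and 1.70 ± 0.62 for Tcstv3 (0.0425). Sp110 had -0.18 ± 0.89 (SE; limma adjusted p = 0.91). The median over the 8 genes was 1.45, beside 0.02 over all genes tested.

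Tcstv3 was not called when any of 7 of the 8 libraries of these 4 groups was left out (adjusted p from 0.0502 to 0.152), nor was Usp17la without the second 0 h library (0.056), the first 96 h library (0.053), the second undosed library (0.0834) or the second high-dose library (0.0621). The tables were normalised separately and the cells were held at different doses before withdrawal, 2.5 µg/mL for the time course and 0.1 µg/mL for the rescue. The starting levels differed as well: after 96 h without doxycycline the 9 genes summed to 73.2 RPM in the time course, beside 44.5 in the rescue.

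**Figure D3:**
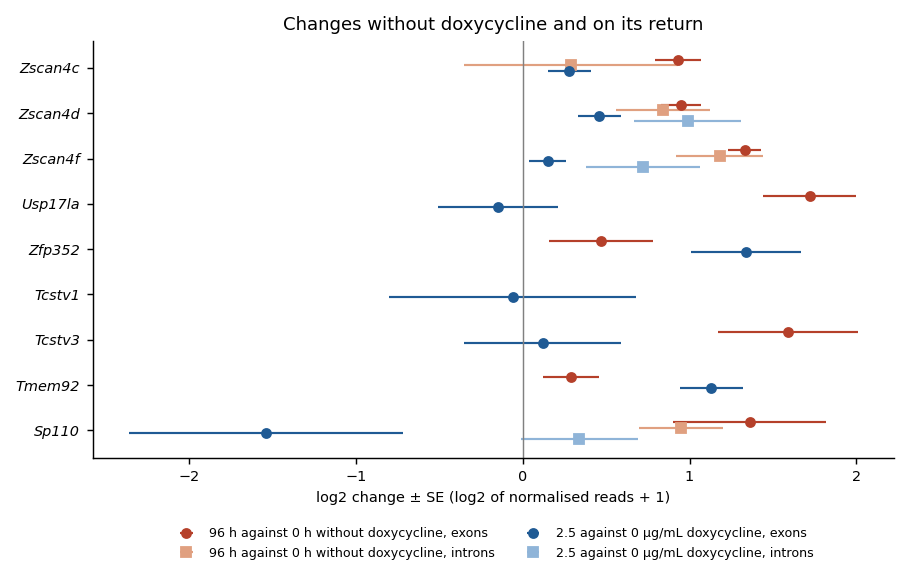
Log2 change (horizontal axis, ± SE) of each gene at 96 h against 0 h without doxycycline (red; introns paler) and at 2.5 against 0 µg/mL doxycycline in the rescue (blue; introns paler), for the genes that reached the minimum mean. Zscan4c, Zscan4d, Zscan4f, Zfp352, Tcstv3 and Tmem92 are above 0 in exons in both comparisons, and only Sp110 has opposite exon values of more than 1. In introns Sp110 is above 0 in both comparisons.

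In the genetic series few comparisons could be called, and the libraries of AB2.2, of E7 and of the clones each differed widely among themselves in the 9 genes. The lowest sums were in B9, with 30.2 RPM (28.5 and 31.9 in the 2 libraries), and the highest were in E7, with 105.5 (from 59.2 to 170.2 in 3 libraries) and the clones, with 91.4 (63.8 and 119). AB2.2 had 65.5 (47.1 and 83.9). In E7, values with 13.7% of the exon signal could not be resolved into libraries and are missing from its totals. Its RPM values are therefore too high, and its order against the clones cannot be told from these sums. In the other groups all exon values were resolved. B9 lay below all other libraries of the series, while AB2.2, E7 and the clones overlapped.

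**Figure D4:**
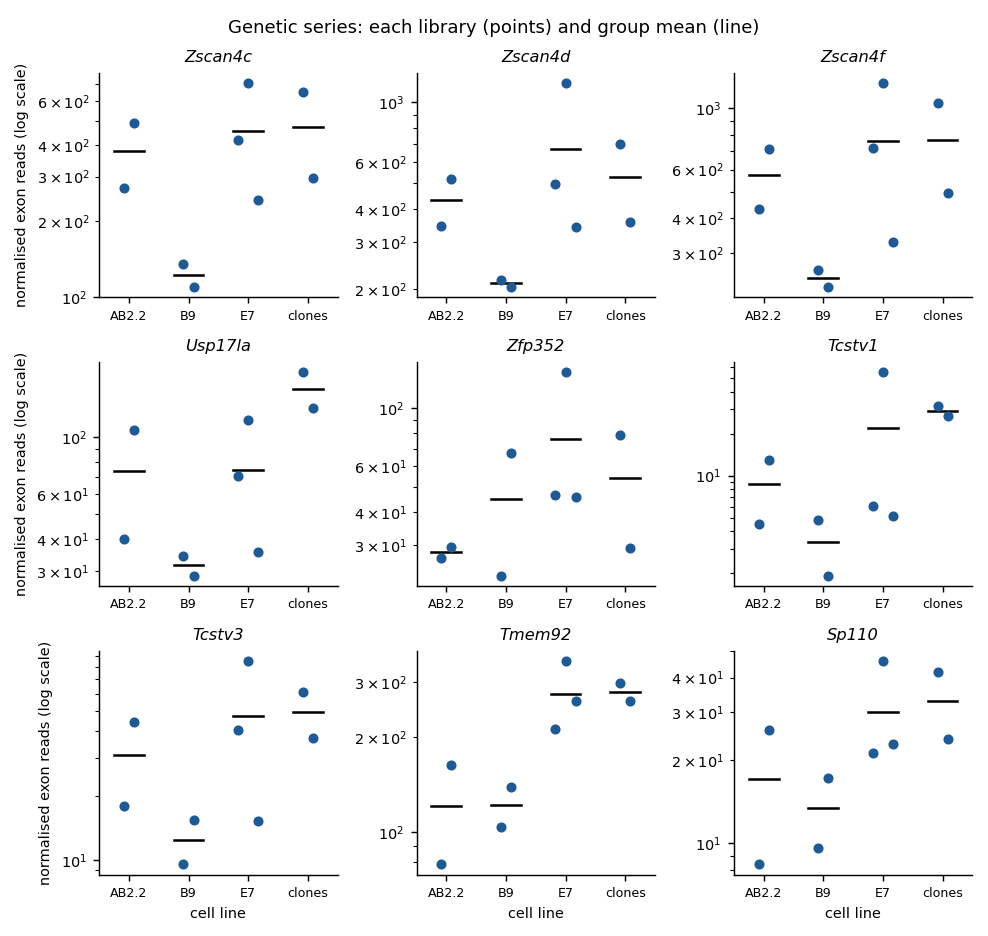
Normalised exon reads (vertical axis, log scale, with a range of its own in each panel) of the 9 genes in the 4 groups of the genetic series, with 1 point per library and a line at the mean of each group. Both B9 libraries lie below every other library in Zscan4c, Zscan4d, Zscan4f and Usp17la, and the 3 E7 libraries spread over several fold. The share of all genes with B9 below every other library was not counted.

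Within E7 and within AB2.2 the 9 genes were highest in the same library. In E7 it was 1 of the 3 libraries for 9 of 9 genes, and in AB2.2 the shallower library (13.5 against 46.5 M exon reads) for 9 of 9. Between the clones, which are separate lines with 1 library each, the same clone was the higher for 9 of 9. In B9, with 2 libraries of 1 line, the counts were 5 and 4. In E7, for instance, Zscan4f had 719, 1227 and 328 normalised exon reads and Tcstv1 had 6.07, 55.2 and 5.11. In the time course and rescue groups the split was between 3 and 6 of 9 genes to a library, except at 24 h, where 8 of 9 were higher in the deeper library. The share of all genes that were highest in the same library was not counted, and the Zscan4 members share reads. Whether these counts are particular to the 9 genes was therefore not tested. Ago2, not a member, was also higher in the shallower AB2.2 library (5200 and 7254 normalised exon reads). In E7 it was highest in another library than the members (3578, 5250 and 6799). Whether the cultures differed in their share of cells in the state or in another way was not tested.

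Zscan4c had 135 and 109 normalised exon reads in B9, 269 and 488 in AB2.2, 418, 704 and 243 in E7, and 649 and 296 in the clones. Against B9 the clones were higher by 1.84 ± 0.53 on the log2 scale (SE; limma adjusted p = 0.045). Usp17la had 34.5 and 28.8 in B9, 40.2 and 107 in AB2.2, 70.8, 117 and 35.8 in E7, and 180 and 131 in the clones, with a log2 change in the clones against B9 of 2.25 ± 0.65 (SE; limma adjusted p = 0.0455). These 2 of 9 genes were the calls in the clones against B9, against 7.58% of the 13178 genes tested, and 7 of the 9 had an unadjusted p under 0.05.

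Both calls were lost without either B9 library (adjusted p from 0.129 to 0.163), without the first clone library for Usp17la (0.105) and Zscan4c (0.152), and without the second for Usp17la (0.114) and Zscan4c (0.0508). Zscan4c was also lost without either AB2.2 library (0.0571 and 0.0576) or the first E7 library (0.0609), and Usp17la without the first or the second E7 library (0.0619 and 0.054). Without the third E7 library Zscan4f was called as well, at 1.56 (adjusted p = 0.0386), beside 0.084 with all libraries.

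Tmem92 had 103.5 and 139 in B9, 78.7 and 163 in AB2.2, 212, 349.6 and 261 in E7, and 297 and 261 in the clones. All 5 libraries of E7 and the clones lay above all 4 of B9 and AB2.2, and the log2 change of the clones against AB2.2 was 1.29 ± 0.44 (SE; limma adjusted p = 0.0631). In the other comparisons of exons limma called 0 of 9 genes in either direction: in B9 against AB2.2 (against 0.0683% of all genes called), E7 against AB2.2 (4.58%), the clones against AB2.2 (18.6%), E7 against B9 (0.0683%) and the clones against E7 (1.50%). At an unadjusted p under 0.05 the members called there were 1 lower in B9 against AB2.2, 1 higher in E7 against AB2.2, 1 higher in the clones against AB2.2, 4 higher in E7 against B9 and 0 in the clones against E7, and voom called 1, Tmem92, in the clones against AB2.2 and 0 in the other 4.

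In introns of the clones against B9, 1 of 5 genes tested was called higher, against 0.837% of the 11463 genes tested. It was Zscan4f, with 6.71 and 21.4 normalised intron reads in B9 and 128 and 95.8 in the clones, a log2 change of 3.09 ± 0.65 (SE; limma adjusted p = 0.0406). The B9 values came from 10 and 19 reads, and the call was lost without the first B9 library (2.32, adjusted p = 0.182), either clone library (0.101 and 0.182), or the first or the third E7 library (0.0709 and 0.0552).

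Over the 11 groups, the order of the summed level was E7, the clones, 96 h without doxycycline, AB2.2, the high and the low dose of the rescue, the undosed rescue, 48 h, 0 h and 24 h without doxycycline, and B9. The libraries of neighbours in this order overlapped in E7 and the clones, the clones and 96 h, 96 h and AB2.2, AB2.2 and the high dose, the 2 doses, and 0 h and 24 h and 24 h and B9. Those of the low dose and the undosed rescue, of the undosed rescue and 48 h, and of 48 h and 0 h did not overlap. Levels of different series come from separate tables. The sum of E7 is too high, as part of its exon signal is missing from its totals, so its place before the clones cannot be told.

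The gene most like the members in profile was Zscan4b, another Zscan4 copy. Over the 11 group means, each centred on its series, and 12988 genes, the highest Pearson correlations with the mean profile of 8 members were 0.945 for Zscan4b, 0.936 for LOC106029237, 0.925 for Dcc, a netrin receptor, 0.922 for Pramef25 and 0.914 for Gm8300. Zscan4b, with 90.3% of its stretches of 50 bases in other genes, rose from 221 ± 11.1 at 0 h to 400.4 ± 45.0 normalised reads at 96 h (SD, n = 2). Each member's own correlation with the mean of the other 7 was 0.957 for Zscan4f, 0.956 for Zscan4d, 0.935 for Tcstv3, 0.903 for Zscan4c, 0.842 for Usp17la, 0.727 for Tmem92, 0.678 for Sp110 and 0.508 for Zfp352. These values describe 11 groups that share lines and libraries, and the Zscan4 copies share reads.

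Other genes of the 2-cell-like state went partly the same way. Of 62 listed, 33 were in the tables and 23 were tested in the time course, where 12 were called higher and 1 lower at 96 h against 0 h (against 32.4% and 32.5% of all genes), with a median log2 change of 0.61 beside -0.01 over all genes. The 4 with the largest changes were B020004J07Rik (8.24 to 22.2 normalised reads, 1.32 ± 0.56), Zfp750 (331 to 666, 1.01 ± 0.11), Usp17lc (68.5 to 126, 0.87 ± 0.25) and Calcoco2 (6458 to 11811, 0.87 ± 0.05, SE). At 2.5 µg/mL doxycycline against none, 6 of 24 tested rose and 3 fell, shares below the 31.8% and 32.0% of all genes, with a median of 0.36 beside 0.00. Zfp750, a zinc finger gene of epidermal differentiation, and Calcoco2, an autophagy receptor, fell there by 1.78 and 0.64 on the log2 scale, while Usp17lc had 0.51 ± 0.32 (SE; limma adjusted p = 0.177). Of the 12 genes higher at 96 h, 3 were lower at 2.5 µg/mL, Zfp750, Calcoco2 and Pramef12 (-0.45), and 4 were higher there too, like the member Zscan4d. Those 4, named after their values were seen, were Gm5662, with a log2 change of 1.50 ± 0.22 (SE; limma adjusted p = 1.51e-06), Gm2016 (0.80), Zscan4b (0.50) and Gm8300 (0.45). Their withdrawal-against-rescue differences were 1.96, 1.43, 1.35 and 1.01. That difference adds the 2 changes by which these genes were chosen, so it had to be above 0 and is no further test.

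In the lists that follow, the shares of all genes called were 32.4% higher and 32.5% lower at 96 h, and 31.8% and 32.0% at 2.5 µg/mL. Of 8 tested activators of the state, 1 rose and 5 fell at 96 h, with a median log2 change of -0.16, and 5 rose and 1 fell at 2.5 µg/mL. Gata2, a GATA factor, was the one that rose, from 97.3 to 239.8 normalised reads, a log2 change of 1.29 ± 0.19 (SE; limma adjusted p = 2.13e-06), and it fell by 2.05 ± 0.26 when doxycycline was given back (SE; limma adjusted p = 9.59e-08). Of 33 tested repressors, 16 fell and 6 rose at 96 h, with a median of -0.10, and at 2.5 µg/mL 15 rose and 11 fell, the latter near the share of all genes. The largest fall was that of Lin28a, an RNA-binding protein that blocks let-7 maturation, from 31189 to 3609 normalised reads, a log2 change of -3.11 ± 0.04 (SE; limma adjusted p = 7.35e-25), and it rose by 3.37 ± 0.05 when doxycycline was given back (SE; limma adjusted p = 1.66e-26). Lin28a, Myc, Nr0b1 and Ncl fell at 96 h and rose at 2.5 µg/mL.

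Markers of ES cells and of other cell types went both ways. At 96 h against 0 h 5 of 10 ES cell markers rose and 5 fell, 1 of 3 tested fibroblast feeder markers rose, 2 of 7 primitive endoderm markers rose and 3 fell, and 2 of 6 trophoblast markers rose and 2 fell. At 2.5 µg/mL against none, the counts of higher and lower were 5 and 3 of 10, 1 and 0 of 3, 3 and 2 of 6, and 2 and 1 of 6. In RPM per kilobase of exon, trophoblast markers summed to 41.3 to 42.2 at 0 h and to 59.9 to 62.4 at 96 h. Primitive endoderm markers summed to 24.5 to 25.1 and to 17.4 to 19.4. Their part in the results was not tested.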

How the data were processed

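Polyadenylated RNA was sequenced from 23 samples with strand-specific libraries, per the labels' protocols. TopHat2 2.0.12, DESeq and mm10 are named in the submitters' processing notes. The deposited columns, 1 per group, hold exon or intron signal: means over a group's libraries of read counts divided by a size factor per library, which the authors set. Each library's whole reads were recovered from these means by an exact search, which gave 1 solution for 99.984% of 405064 values (66 were left out); it was tested on simulated data. Libraries are numbered by depth within a group, and which replicate label each belongs to is not known. Of recovered exon values from 1 to 19, 73.8% to 87.4% per library were even, so reads were not independent and counting error is larger than their number gives.

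Genes with a mean of at least 10 were tested with limma 3.58.1 (R 4.3.3, trended prior) on log2(normalised reads + 1), 1 fit per table, with Benjamini-Hochberg adjustment over all genes. Replicates may be technical, and p-values then measure only the spread between these samples. The alternatives were pseudocounts of 0.5 and 5, no minimum, refitted size factors, voom, a prior without a trend, only the groups compared, and each library left out. The members and lists were chosen with earlier results of these data known. All 9 members are named, with up to 4 genes of each list by the size of the change among those called at 96 h, and the 5 genes with the most similar profile. Gene positions come from GENCODE M21 (mm10), promoters from RefSeq for 6 of the 9 genes.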

Additional observations from a re-analysis of the deposited data

Results flagged for a closer look

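The change without doxycycline differed between the time course and the rescue for 7 genes, in a test of the difference itself (limma, 1 fit over both exon tables, chosen after the values were seen). The change from 0 h to 96 h without doxycycline exceeded that from 2.5 to 0 µg/mL by 1.81 on the log2 scale for Zfp352, 1.70 for Tcstv3, 1.57 for Usp17la, 1.47 for Zscan4f, 1.42 for Tmem92, 1.41 for Zscan4d and 1.21 for Zscan4c, with adjusted p from 5.43e-08 to 0.0425. In Tmem92 and Zfp352 the larger part of the difference lay in the rescue, where they were higher with doxycycline than without, and in Usp17la and Zscan4f it lay in the time course. No group had enough samples for a single library to be tested as standing apart.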

How the results depend on the processing

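At 96 h against 0 h the exon count of 6 higher stayed between 5 and 7, and the 7 of the comparison of withdrawal with rescue between 5 and 7. Over all settings, 446 of 501 counts stayed within 1.5 times their main value and 55 moved, and of 1895 single log2 changes 79 lost and 8 gained a call and 0 reversed. Without a minimum, the counts of members called higher were 1 in exons at 48 h against 0 h and 0 at 48 h against 24 h, and in introns 1 at 48 h against 24 h, 1 at 96 h against 48 h, 2 at 2.5 against 0 µg/mL and 0 at 2.5 against 0.1 µg/mL, and 0 in exons and 0 in introns of the clones against B9. With voom they were 1 at 48 h against 0 h, 0 at 48 h against 24 h, 1 in the clones against AB2.2 and 1 in the clones against B9. A prior without a trend added Zfp352 at 96 h against 0 h (0.47, adjusted p = 0.0421; 7 higher) and gave 0 higher and 1 lower (Zfp352) at 48 h against 0 h, 0 at 48 h against 24 h, 1 at 0.1 against 0 µg/mL and 0 in the clones against B9. Fitting only the 2 groups gave 1 in the clones against B9. The cause was not tested. With each library left out, the lowest and highest counts were 0 and 2 lower at 24 h against 0 h, 0 and 2 higher at 48 h against 0 h, 0 and 2 at 48 h against 24 h, 4 and 8 at 96 h against 48 h, 1 and 3 at 0.1 against 0 µg/mL, 0 and 1 lower at 2.5 against 0 µg/mL, and 0 and 3 in the clones against B9; in introns they were 0 and 2 at 96 h against 48 h, 0 and 1 at 2.5 against 0 µg/mL, 0 and 1 at 2.5 against 0.1 µg/mL, and 0 and 1 in the clones against B9. A group left with 1 library was assumed to vary like the others. No paired analysis was possible because the deposited columns carry no replicate numbers. With 2 libraries in most groups, and few reads for Tcstv1, Sp110 and most introns, small changes of these were not detectable at this depth.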
